A study of Mus musculus with 8 samples.

Results

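Germ cells are set apart from the body's other cells by genes that are silent almost everywhere else: RNA-binding proteins that keep germ cell identity, the machinery that makes small RNAs against transposons (piRNAs), and the proteins of meiosis, the division in which homologous chromosomes pair, are cut and recombine. In other tissues many of these genes are held off by DNA methylation and by a Polycomb complex that reaches DNA through the Mga/Max and E2f6 proteins. Medullary thymic epithelial cells (mTECs) are an exception, since they transcribe genes of many tissues so that developing T cells meet these products as self, a process called promiscuous gene expression that partly depends on the regulator Aire. Here 10 germline and meiosis genes were followed across mTEC subsets: Ddx4, Dazl, Stra8, Spo11, Smc1b, Tdrd1, Hormad1, Sycp1, Sycp3 and Mael. They were picked by name from a gene count table of 25466 rows, by matching Ensembl gene identifiers to mouse GENCODE symbols, and 7 of the 10 had a row. The mean level was highest in Tspan8negMHCIIhi mTECs for 6 of those 7, as it was for 36.3% of all rows. For Dazl this rests on 6 counts in 1 library, and for Ddx4 the libraries of that subset overlapped those of another. Stra8 was the only gene of the 3 that entered the test with a difference between subsets that passed it.

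RNA was sequenced from mTECs of BL6N6 wild-type mice aged 4 to 6 weeks, with no treatment and no altered allele. The cells were CD45neg, Epcam positive and CDR1neg, and were sorted by flow cytometry on the surface protein Tspan8 and on MHC class II into 4 subsets: Tspan8negMHCIIlo, Tspan8negMHCIIhi, Tspan8posMHCIIhi and Tspan8posMHCIIlo. Each subset has 2 libraries labelled as biological replicates. How many animals gave each library was not given in the sources used here. The design asks how expression differs with Tspan8 at each MHCII level, and with MHCII on each side of the Tspan8 gate.

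Totals ran from 1941518 counts in Tspan8posMHCIIlo replicate 1 to 7783841 in Tspan8posMHCIIlo replicate 2, so a gene at 3 counts stood at 0.385 to 1.55 counts per 1000000 counts of the library (CPM), depending on the library. Tspan8 was at 325.5 to 374 CPM in the Tspan8pos libraries and 3.76 to 15.8 CPM in the Tspan8neg libraries. H2-Ab1, which encodes an MHC class II chain, was higher in the MHCIIhi libraries of each Tspan8 class. Its level in Tspan8posMHCIIhi, 2247 and 2497 CPM, lay near that of Tspan8negMHCIIlo, 1835 and 2136 CPM. The epithelial gene Epcam was present in all 8 libraries at 396 to 1013 CPM. Thymocyte markers stood apart in the Tspan8negMHCIIlo libraries, where 6 genes including Cd3e and Rag1 summed to 346 and 1007 CPM, against 62.4 to 185 CPM elsewhere. Summed markers of cortical thymic epithelial cells (5 genes, 1109 and 908 CPM against 256 to 483 CPM) and of endothelial cells (3 genes, 110 and 92.4 CPM against 12.4 to 57.2 CPM) were highest in those libraries too. The cortical sum was mostly Ctsl (982 and 654 CPM), and the means of Prss16 and Psmb11 were also highest there. Ackr4 was instead highest in Tspan8posMHCIIlo (46.9 and 42.3 CPM) and Ly75 in Tspan8negMHCIIhi (68.3 and 77.6 CPM). In bulk samples, fewer cells transcribing a gene and less RNA per cell cannot be told apart.

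Sycp1 and Sycp3, the structural proteins of the synaptonemal complex that zips homologous chromosomes together, had no value here and were not analysed. The same holds for Mael, a piRNA factor of the germ cell cytoplasm. Every row of the table was above 0 in at least 2 libraries, so a gene seen in 1 library or in none would have no row. Of the 7 genes with a row, 3 (Stra8, Spo11 and Tdrd1) passed the filter on low counts and entered the test, and Ddx4, Dazl, Smc1b and Hormad1 did not. Counts under 3 were found for Spo11 in 1 of 8 libraries, for Stra8 in 2, for Tdrd1 in 4, for Ddx4 in 5, for Smc1b in 6, for Hormad1 in 6 and for Dazl in 7. With every library thinned to 1941518 counts, the genes seen at least once numbered 5 and 6 in the Tspan8negMHCIIhi libraries and 3 and 5 in Tspan8posMHCIIhi. The same numbers were 3 and 3 in Tspan8negMHCIIlo and 2 and 3 in Tspan8posMHCIIlo. Over all 25466 rows, before thinning, genes above 0 numbered 22705 and 23570 in Tspan8negMHCIIhi and 18173 to 21457 in the other libraries. That subset thus showed the most genes of any kind.

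The promoters of 4 of these genes are printed: that of Stra8, the gene called between subsets, and those of Ddx4, Smc1b and Tdrd1, which hold different sets of the motifs counted here. Each stretch is the 250 bases before the RefSeq start in assembly GRCm38.p6, written 5′ to 3′ on the gene's own strand. Capitals mark CACGTG, the E-box that Mga/Max-type proteins bind, and GCGGGA or its reverse complement TCCCGC, an E2F-type site. Stra8 lies on the plus strand at chr6:34920698-34920947, Ddx4 on the minus strand at chr13:112652311-112652560, Smc1b on the minus strand at chr15:85131958-85132207 and Tdrd1 on the plus strand at chr19:56825959-56826208. The RefSeq start of Stra8 lies 785 bases inside the GENCODE gene and that of Ddx4 165 bases inside, so these stretches lie partly or wholly within the GENCODE gene bodies.
Stra8: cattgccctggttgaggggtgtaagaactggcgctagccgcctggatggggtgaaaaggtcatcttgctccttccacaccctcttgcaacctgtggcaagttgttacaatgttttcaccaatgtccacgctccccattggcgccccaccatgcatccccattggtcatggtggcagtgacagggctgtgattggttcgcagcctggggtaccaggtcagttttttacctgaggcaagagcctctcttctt
Ddx4: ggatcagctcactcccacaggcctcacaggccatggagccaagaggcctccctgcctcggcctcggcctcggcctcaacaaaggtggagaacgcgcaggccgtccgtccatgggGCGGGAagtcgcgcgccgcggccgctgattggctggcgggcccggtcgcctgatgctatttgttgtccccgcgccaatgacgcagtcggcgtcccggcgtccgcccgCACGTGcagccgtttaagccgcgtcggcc
Smc1b: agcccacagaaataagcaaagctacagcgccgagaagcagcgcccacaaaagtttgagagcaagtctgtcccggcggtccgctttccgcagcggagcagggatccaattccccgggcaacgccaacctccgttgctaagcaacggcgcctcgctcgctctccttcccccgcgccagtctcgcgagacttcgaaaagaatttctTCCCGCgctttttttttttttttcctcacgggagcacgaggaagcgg
Tdrd1: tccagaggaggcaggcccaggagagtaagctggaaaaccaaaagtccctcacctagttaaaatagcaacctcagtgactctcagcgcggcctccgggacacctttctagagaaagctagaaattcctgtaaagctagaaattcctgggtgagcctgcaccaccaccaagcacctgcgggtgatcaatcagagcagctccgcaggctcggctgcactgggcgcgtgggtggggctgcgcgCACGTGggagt

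Counts over the promoters used the RefSeq window of 300 bases, from 250 before to 50 after the start, which was at hand for 9 of the 10 genes and not for Spo11. Ddx4 held 38 CpG dinucleotides, Smc1b 29, Dazl 28, Mael 24, Hormad1 24, Sycp1 21, Tdrd1 20, Sycp3 15 and Stra8 10. All 9 lay above the median of 7 over 32851 windows, and Stra8 was the lowest of them. As many CpG or more were found in 43.5% of all windows for Stra8 and in 34.6% for Sycp3. CACGTG was present in 6 of the 9 windows, against 7.15% of all windows. GCGGGA or TCCCGC was present in 6 of the 9, against 19.98% of all windows, and 5 of the 9 held both motifs, against 1.99%. Both motifs hold a CpG, and the 9 windows had a median of 24 CpG against 7 over all windows. The shares of all windows are therefore not those of windows with like CpG content, which were not counted. The E-box lay 29 bases before the start in Ddx4 and 11 bases before it in Tdrd1, and the E2F-type site lay 136 bases before it in Ddx4 and 47 in Smc1b. Neither string occurred in the windows of Stra8 and Dazl. The motifs were matched as strings on both strands and can share at most 1 base with each other, and no binding was measured here.

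**Figure D1:**
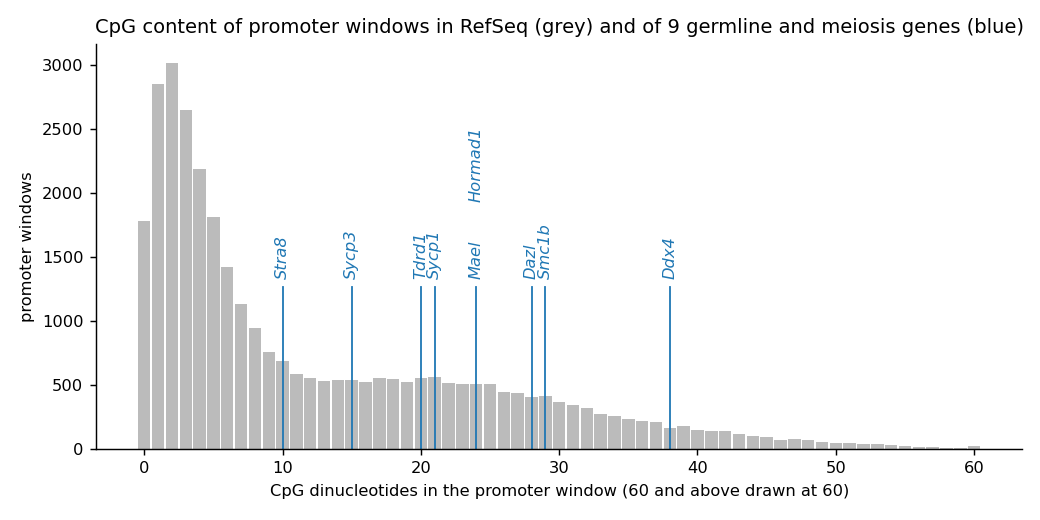
CpG dinucleotides (x axis) in the RefSeq promoter windows of all genes (grey bars, number of windows on the y axis), with 9 germline and meiosis genes drawn as blue lines. All 9 lie to the right of the median of 7, from Stra8 at 10 to Ddx4 at 38.

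Stra8, a retinoic acid-induced transcription factor that switches germ cells into meiosis, lies at chr6:34920163-34939344 on the plus strand with no overlapping gene. Its counts were 52 and 109 in Tspan8negMHCIIhi, 12 and 19 in Tspan8posMHCIIhi, 5 and 3 in Tspan8negMHCIIlo, and 0 and 2 in Tspan8posMHCIIlo. On the CPM scale these are 13.2 ± 2.47 (SD, n = 2) in Tspan8negMHCIIhi, 2.95 ± 1.04 (SD, n = 2) in Tspan8posMHCIIhi, 1.11 ± 0.483 (SD, n = 2) in Tspan8negMHCIIlo and 0.129 ± 0.182 (SD, n = 2) in Tspan8posMHCIIlo. The 4 subsets did not overlap, so that both libraries of each subset lay above both of the next in this order. The last step rests on 5 and 3 counts against 0 and 2 and is not resolved. In Tspan8posMHCIIlo replicate 1, a level of 3 counts is 1.55 CPM, above both Tspan8negMHCIIlo libraries (1.45 and 0.764 CPM).

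Between MHCII levels, Stra8 was called higher in MHCIIhi cells on both sides of the Tspan8 gate. Within Tspan8neg cells the log2 fold change was 3.56 (SE 0.54, edgeR adjusted p = 0.00035), and 13.1% of the 17006 genes tested were called higher there and 9.67% lower. Within Tspan8pos cells it was 3.71 (SE 0.78, edgeR adjusted p = 0.0076), where 4.59% of genes were called higher and 2.62% lower. Calls required a log2 fold change of at least 1 in size with an adjusted p below 0.01. The Tspan8neg call held without each library in turn, with adjusted p up to 0.00839, and under DESeq2. The Tspan8pos call rests on few counts: it was lost with DESeq2 (adjusted p = 0.019) and without either library of Tspan8negMHCIIhi, Tspan8posMHCIIhi or Tspan8posMHCIIlo, where adjusted p ran from 0.0157 to 0.0854.

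Between Tspan8 classes, Stra8 was called lower in Tspan8pos cells at the MHCIIhi level, with a log2 fold change of -1.99 (SE 0.44, edgeR adjusted p = 0.0046). There 7.45% of the genes tested were called lower and 11% higher. That call was lost with DESeq2 (adjusted p = 0.026) and when each of the 4 libraries compared was left out in turn (Tspan8negMHCIIhi replicates 1 and 2 and Tspan8posMHCIIhi replicates 1 and 2), where adjusted p ran from 0.0178 to 0.0791. The direction was the same in each of these fits. At the MHCIIlo level the log2 fold change was -2.14 (SE 0.95, edgeR adjusted p = 0.094) from 8 counts against 2, which did not pass. The Tspan8 difference at the MHCIIlo level minus that at the MHCIIhi level (the interaction) was -0.16 on the log2 scale (edgeR adjusted p = 0.95), with 2.36% of genes called above 0 and 2.24% below.

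Spo11, the enzyme that makes the DNA double-strand breaks which start meiotic recombination, lies at chr2:172977700-172993576 on the plus strand with no overlapping gene. It had the most counts of the 10 genes, 261 over all libraries. They were 45 and 104 in Tspan8negMHCIIhi, 22 and 30 in Tspan8negMHCIIlo, 9 and 26 in Tspan8posMHCIIhi, and 1 and 24 in Tspan8posMHCIIlo. Mean levels fell in that order, at 12.1 ± 3.08, 7.0 ± 0.899, 3.35 ± 2.39 and 1.799 ± 1.82 CPM (SD, n = 2 each). Both Tspan8neg subsets lay above both Tspan8pos subsets in every library, while the 2 Tspan8pos subsets overlapped each other. The gene thus differed from Stra8 in where its second-highest level lay, in Tspan8negMHCIIlo and not in Tspan8posMHCIIhi.

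Spo11 was called in none of the 5 comparisons by edgeR or DESeq2, and it had an unadjusted edgeR p under 0.05 in 2 of them. At the MHCIIhi level the log2 fold change between Tspan8pos and Tspan8neg cells was -1.69 (SE 0.53, edgeR adjusted p = 0.028). It crossed the threshold when only those 4 libraries were fitted (edgeR adjusted p = 0.0048) and with a replicate block (edgeR adjusted p = 0.0071). At the MHCIIlo level the value was -1.42 (SE 0.61, edgeR adjusted p = 0.085), where 9.34% of all genes tested were called lower and 12.1% higher. Between MHCII levels the log2 fold change was 0.78 (SE 0.51, edgeR adjusted p = 0.24) in Tspan8neg cells and 0.51 (SE 0.63, edgeR adjusted p = 0.65) in Tspan8pos cells.

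Tdrd1, a Tudor-domain scaffold that binds the PIWI proteins of the piRNA pathway, lies at chr19:56826209-56870012 on the plus strand with no overlapping gene. Its counts were 15 and 24 in Tspan8negMHCIIhi, 1 and 11 in Tspan8negMHCIIlo, 1 and 6 in Tspan8posMHCIIhi, and 1 and 1 in Tspan8posMHCIIlo. The 2 Tspan8negMHCIIhi libraries agreed closely, at 3.295 and 3.285 CPM, and lay above the 6 others. The nearest was Tspan8negMHCIIlo replicate 2 at 2.80 CPM, whose partner stood at 0.289 CPM. No comparison was called by edgeR, and 1 had an unadjusted edgeR p under 0.05. DESeq2 gave no adjusted p for Tdrd1 except between MHCII levels in Tspan8neg cells, where it was 0.59. The log2 fold change between Tspan8pos and Tspan8neg cells was -2.09 (SE 0.93, adjusted p = 0.10) at the MHCIIhi level and -2.57 (SE 1.31, adjusted p = 0.14) at the MHCIIlo level. Between MHCII levels it was 1.04 (SE 0.87, adjusted p = 0.36) in Tspan8neg cells. Single libraries moved these last values. The MHCIIlo difference was -3.38 and -0.26 without Tspan8negMHCIIlo replicates 1 and 2, and -3.25 and -1.39 without those of Tspan8posMHCIIlo. The MHCII difference in Tspan8neg cells was 0.25 without Tspan8negMHCIIlo replicate 1 and 3.34 without replicate 2.

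**Figure D2:**
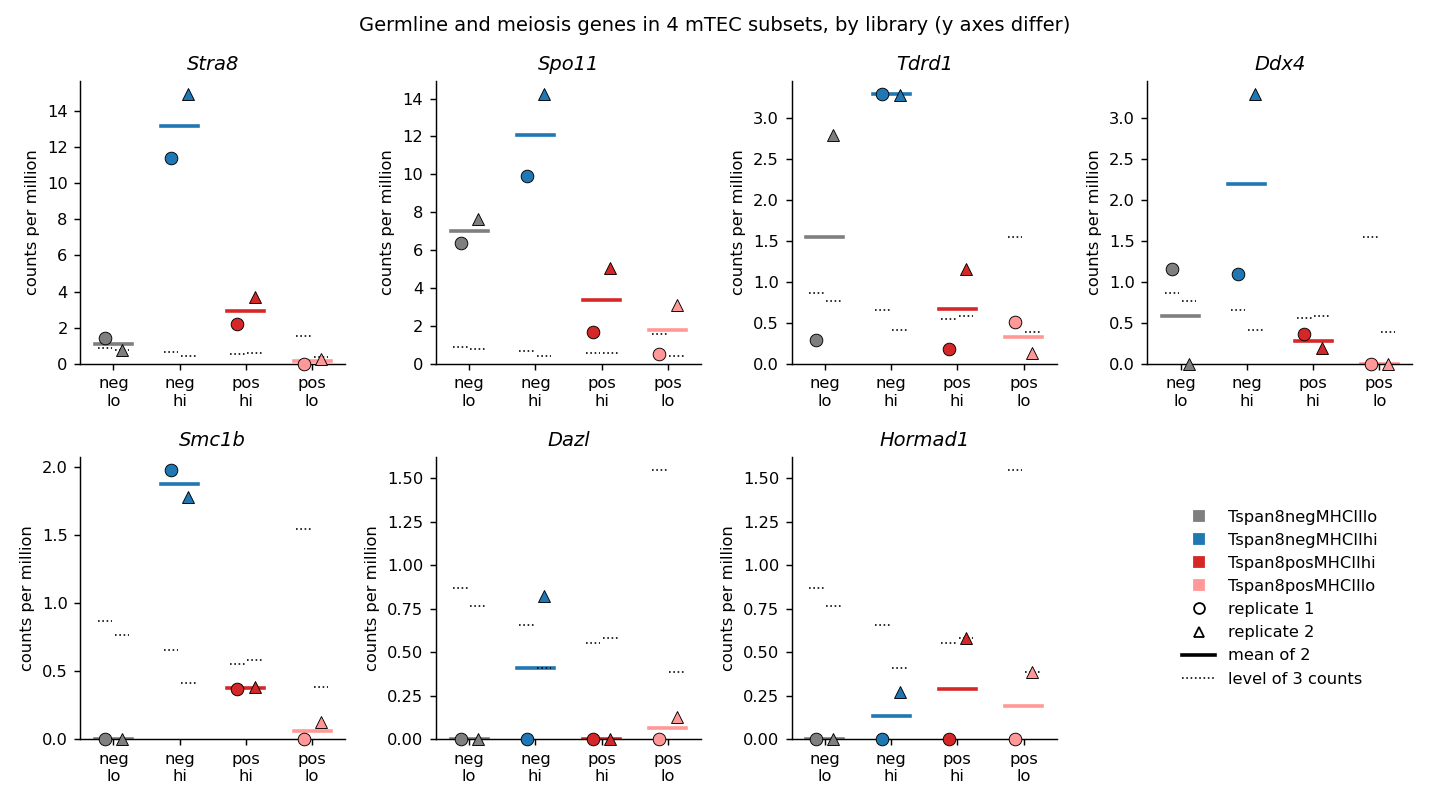
Level in CPM (y axis, scale set for each gene) of the 7 germline and meiosis genes with a row, in each library of the 4 subsets (x axis: neg and pos for Tspan8, lo and hi for MHCII), with the mean of 2 libraries as a bar and the level of 3 counts in that library as a dotted line. Stra8, Spo11, Tdrd1 and Smc1b have both Tspan8negMHCIIhi libraries above the 6 others, while Dazl and Hormad1 stay at 6 counts or fewer in every library.

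**Figure D3:**
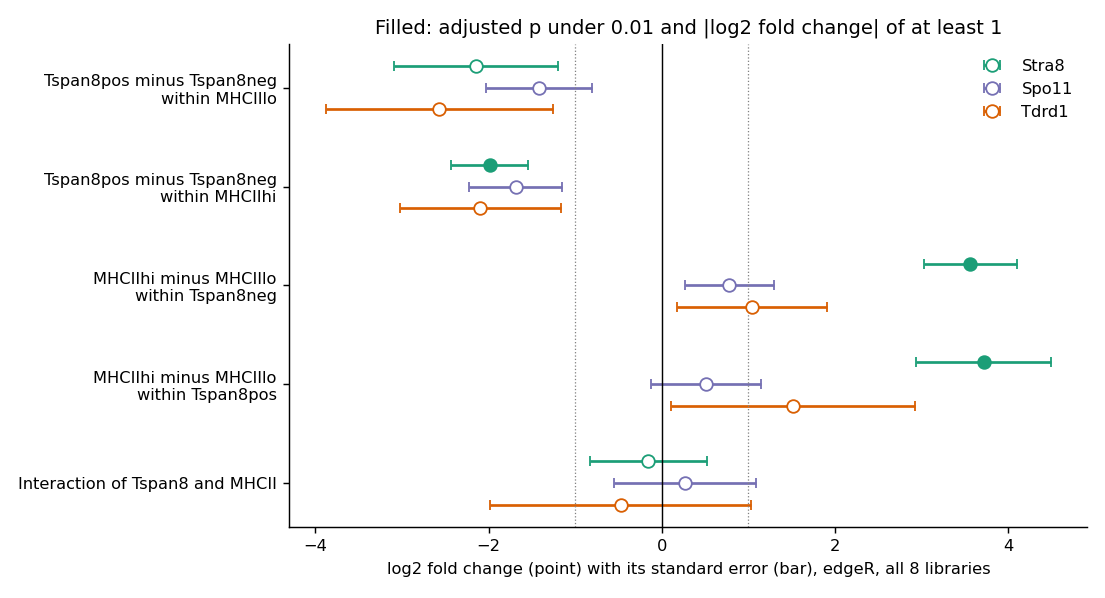
Log2 fold changes (x axis) of the 3 genes that entered the test, in the 4 comparisons between subsets and for their interaction (y axis), with standard errors as bars and filled points for calls. The filled points are all Stra8, at 3.56 and 3.71 between MHCII levels and at -1.99 between Tspan8 classes at the MHCIIhi level.

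Across the 3 genes tested, 1 was called in each of the comparisons at the MHCIIhi level and between MHCII levels, and this was Stra8 each time, beside the shares of all genes given with its values (7.45% lower, 13.1% higher and 4.59% higher). None of the 3 was called by edgeR between Tspan8 classes at the MHCIIlo level, where 2 had an unadjusted p under 0.05. For the interaction the count was 0 by edgeR and 0 at an unadjusted p under 0.05. DESeq2 called none in these 2 comparisons either, but gave no adjusted p for Tdrd1 in them.

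Smc1b, the meiosis-specific cohesin subunit that holds sister chromatids together, lies at chr15:85064689-85131964 on the minus strand. The gene Gm10923 lies on the opposite strand without sharing an exon. Smc1b was at 9 and 13 counts in Tspan8negMHCIIhi, 2 and 2 in Tspan8posMHCIIhi, 0 and 1 in Tspan8posMHCIIlo, and 0 and 0 in Tspan8negMHCIIlo. The mean in Tspan8negMHCIIhi, 1.88 ± 0.14 CPM (SD, n = 2), was at least 2.3-fold higher than Tspan8negMHCIIlo could reach with 3 counts per library. Against Tspan8posMHCIIhi the pooled counts of 22 and 4 give a ratio per total of 4.91, with an exact 95% counting interval of 1.67 to 19.6. In an edgeR fit on all rows without the filter, Smc1b had adjusted p = 0.015 between MHCII levels in Tspan8neg cells and 0.20 between Tspan8 classes at the MHCIIhi level, neither of them a call. With only the 4 libraries compared in that fit, the first passed (adjusted p = 0.0064). DESeq2 gave no adjusted p for it.

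Ddx4, the RNA helicase also known as Vasa that marks the germ line from its beginnings, lies at chr13:112598333-112652475 on the minus strand with no overlapping gene. It was at 5 and 24 counts in Tspan8negMHCIIhi, 4 and 0 in Tspan8negMHCIIlo, 2 and 1 in Tspan8posMHCIIhi, and 0 and 0 in Tspan8posMHCIIlo. Tspan8negMHCIIhi replicate 2 carries most of its counts, and replicate 1 of that subset (1.10 CPM) lay below Tspan8negMHCIIlo replicate 1 (1.16 CPM). The pooled ratio of Tspan8negMHCIIhi to Tspan8posMHCIIhi was 8.64 (exact 95% counting interval 2.68 to 44.3), and that to Tspan8negMHCIIlo was 4.52 (1.59 to 17.7). The edgeR fit without the filter gave adjusted p = 0.11 and 0.22 for these comparisons. For Tspan8posMHCIIlo, a count of 0 in each library allows up to 1.55 and 0.385 CPM.

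Dazl, an RNA-binding protein needed for germ cells to become competent for meiosis, lies at chr17:50279395-50293636 on the minus strand with no overlapping gene. It had 6 counts in Tspan8negMHCIIhi replicate 2, 1 count in Tspan8posMHCIIlo replicate 2 and none in the other 6 libraries. Hormad1, a protein of the meiotic chromosome axis, lies at chr3:95559677-95587671 on the plus strand with no overlapping gene. It had 2 counts in Tspan8negMHCIIhi replicate 2, and 3 each in replicate 2 of Tspan8posMHCIIhi and of Tspan8posMHCIIlo. No difference between subsets was detectable at this depth for either gene. Counting intervals and limits here cover counting error only, since the libraries were amplified by PCR and no molecular identifiers were described.

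Divided by the length of each gene's longest GENCODE transcript, the levels in Tspan8negMHCIIhi ordered the genes. Stra8 led at 7.31 CPM per kb and Spo11 followed at 3.33 CPM per kb. Ddx4 at 0.728, Tdrd1 at 0.634 and Smc1b at 0.464 CPM per kb formed a lower group, in which Ddx4 could not be set above or below the others given its SD of 0.513 (n = 2). Dazl at 0.138 and Hormad1 at 0.0906 CPM per kb were last.

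The highest mean fell in Tspan8negMHCIIhi for 6 of the 7 genes with a row, the exception being Hormad1, and for 36.3% of all 25466 rows. Both Tspan8negMHCIIhi libraries lay above the 6 others for 4 of the 7 (Stra8, Spo11, Tdrd1 and Smc1b). This pattern was chosen after the values were seen, and 21.6% of all rows showed it. Among 97 other germline genes, in 8 lists by role, 87 had a row and 40 of these showed the same pattern. It was shown by 10 of 15 germ cell RNA-binding and identity genes, 9 of 11 oocyte genes, 8 of 19 piRNA genes, 6 of 22 meiotic break and recombination genes, 2 of 10 spermatid genes, 2 of 5 genes of the meiotic cohesin and chromosome axis, 2 of 3 of the synaptonemal complex central element and 1 of 2 of meiotic entry.

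The tests on these other germline genes are given as counts and medians beside those of all genes. The filter on low counts let in 42 of the 87 rows. Some reached its level only in Tspan8negMHCIIhi, such as the oocyte gene Zp1 (2.20 and 3.83 CPM, at most 0.92 elsewhere). The spermatid gene Acrv1 did so too (2.20 and 3.29 CPM, at most 0.552 elsewhere). Counts and medians that set this subset against others thus follow in part from the filter, and no conclusion is drawn from them. Between MHCII levels in Tspan8neg cells, 13 of 42 tested were called higher and 1 lower (13.1% and 9.67% of all genes), with a median log2 fold change of 1.76 against -0.04 for all genes tested. In Tspan8pos cells 4 of 42 were called higher and none lower (4.59% and 2.62% of all genes), with a median of 0.82 against 0.01. By edgeR 15 had an unadjusted p under 0.05 there, and DESeq2 called 3 higher and none lower. Between Tspan8pos and Tspan8neg cells at the MHCIIhi level 1 was called higher and 6 lower (11% and 7.45% of all genes), with a median of -1.17 against -0.03. At the MHCIIlo level 2 were called higher and 2 lower, smaller shares than the 12.1% and 9.34% of all genes, with a median of -0.59 against -0.03. DESeq2 called 7 higher in the first of these comparisons and 1 lower at the MHCIIhi level. The count of 13 was 7 and 6 without Tspan8negMHCIIhi replicates 1 and 2 and 8 without Tspan8negMHCIIlo replicate 2. The count of 6 was 1 and 0 without those Tspan8negMHCIIhi libraries, 0 and 1 without Tspan8posMHCIIhi replicates 1 and 2, and 10 without either Tspan8negMHCIIlo library. The count of 4 in Tspan8pos cells was 3 and 2 without Tspan8negMHCIIhi replicates 1 and 2, 1 and 2 without those of Tspan8posMHCIIhi, 1 and 0 without those of Tspan8posMHCIIlo, and 5 without either Tspan8negMHCIIlo library. The count of 2 lower at the MHCIIlo level ran from 0 to 4 without each library in turn.

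**Figure D4:**
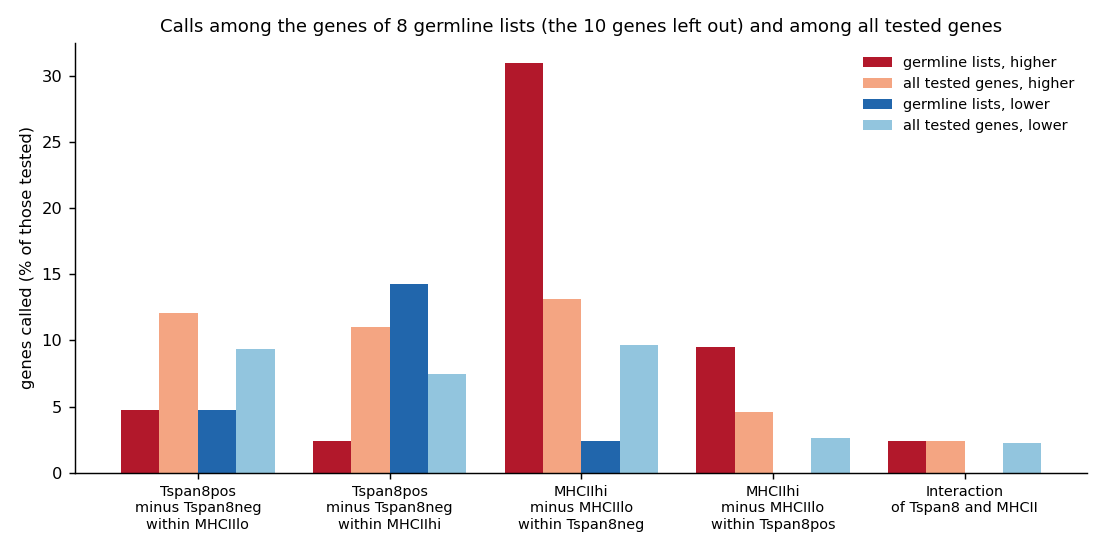
Genes called (y axis, percent of those tested) in each comparison (x axis), for the 42 tested genes of 8 germline lists without the 10 genes (dark bars) and for all 17006 tested genes (light bars), higher in red and lower in blue. The tallest bar is that of germline genes called higher in MHCIIhi than in MHCIIlo cells of the Tspan8neg class, 13 of 42 beside 13.1% of all genes. Some of the 42 passed the filter only through the Tspan8negMHCIIhi libraries.

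Among the germ cell RNA-binding and identity genes, where Ddx4 and Dazl also belong, 4 of 6 tested were called higher in MHCIIhi than in MHCIIlo cells of the Tspan8neg class, where 13.1% of all genes were. The count was 3 to 4 without each library in turn and 3 with DESeq2. Dppa3, which guards maternal DNA methylation marks, stood at 29.4 and 28.7 CPM in Tspan8negMHCIIhi against 0.289 and 1.78 CPM in Tspan8negMHCIIlo (log2 fold change 4.72, SE 0.46, edgeR adjusted p = 2e-05). Tex14, which builds the bridges between dividing germ cells, rose by 4.33 (SE 0.47, edgeR adjusted p = 4.1e-05), and Pou5f1, the pluripotency factor Oct4, by 3.93 (SE 0.56, edgeR adjusted p = 0.00026). These 3 calls held without each library in turn. The fourth, Sohlh1, a transcription factor of early germ cells, was at 4.61 and 4.93 CPM against 0 and 0.255 CPM (log2 fold change 4.89, SE 1.18, edgeR adjusted p = 0.0065), a call lost in 6 of the 8 fits without 1 library and under DESeq2 (adjusted p = 0.030). Sohlh1 was at most at 0.775 CPM outside Tspan8negMHCIIhi and passed the filter only through that subset. The count of 4 thus follows in part from the filter. Between Tspan8 classes at the MHCIIhi level 3 of the 6 were called lower in Tspan8pos cells, beside 7.45% of all genes. They were Tex14 (-2.16, edgeR adjusted p = 0.00088), Pou5f1 (-2.09, edgeR adjusted p = 0.0039) and Zbtb16 (-1.26, edgeR adjusted p = 0.0074). Each was lost without some of the libraries compared, and DESeq2 called Tex14 alone. In Tspan8pos cells Dppa3 was at 12.2 and 12.8 CPM at the MHCIIhi level and at 0.515 and 0.128 CPM at the MHCIIlo level (log2 fold change 5.75, SE 0.63, edgeR adjusted p = 0.00013), a call lost without Tspan8posMHCIIlo replicate 2 (adjusted p = 0.016).

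In the piRNA pathway, where Tdrd1 and Mael act, 4 of 9 tested were called higher in Tspan8negMHCIIhi than in Tspan8negMHCIIlo cells and none lower, beside 13.1% and 9.67% of all genes. The count was 1 to 4 without each library in turn and 2 with DESeq2. Some, such as Spocd1 (5.93 and 4.79 CPM in Tspan8negMHCIIhi, at most 2.21 elsewhere), passed the filter only through that subset. Counts that set this subset against others thus follow in part from the filter. Piwil4, a nuclear PIWI protein, was at 30.8 and 30.9 CPM against 4.05 and 5.85 CPM (log2 fold change 2.62, SE 0.28, edgeR adjusted p = 4e-05), and Tdrd9 rose by 3.71 (SE 0.64, edgeR adjusted p = 0.00082). The Piwil4 call held without each library in turn, and that of Tdrd9 was lost without Tspan8negMHCIIhi replicate 2 (adjusted p = 0.017). Piwil2 (2.25, edgeR adjusted p = 0.0044) was no longer called without either Tspan8negMHCIIhi library or Tspan8negMHCIIlo replicate 2, and Spocd1 (5.05, edgeR adjusted p = 0.0057) without any of the 4 libraries compared. DESeq2 called neither of them. At the MHCIIhi level 2 of the 9, Tdrd9 and Piwil2, were called lower in Tspan8pos than in Tspan8neg cells, beside 7.45% of all genes. Both calls were lost when each of the 4 libraries compared was left out in turn.

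Of 8 oocyte genes tested, 4 were called higher in MHCIIhi than in MHCIIlo cells of the Tspan8neg class, where 13.1% of all genes were. The count was 2 to 3 without each library in turn and 2 with DESeq2. Some of the 8, such as Nlrp5 (4.17 and 5.06 CPM in Tspan8negMHCIIhi, at most 0.92 elsewhere), passed the filter only through that subset. The count of 4 thus follows in part from the filter, and no conclusion is drawn from it. Zp2, an egg coat protein, was at 91.8 and 82.8 CPM in Tspan8negMHCIIhi and 17.1 and 15.0 CPM in Tspan8negMHCIIlo (log2 fold change 2.43, SE 0.18, edgeR adjusted p = 3e-06). Its levels in Tspan8posMHCIIhi, 93.3 and 81.4 CPM, overlapped those in Tspan8negMHCIIhi, which those of Stra8 did not. Ooep, an egg cytoplasm protein, rose by 2.38 (SE 0.28, edgeR adjusted p = 7.4e-05). Zp1, another egg coat protein (edgeR adjusted p = 0.0060), and Nlrp5, a factor of the egg cytoplasm (3.98, edgeR adjusted p = 0.0078), were each lost in 7 of the 8 fits without 1 library. Among the 2 spermatid genes tested, Acrv1 was called higher in the same comparison (edgeR adjusted p = 0.0068), from 2.20 and 3.29 CPM against 0 and 0, a call lost in all 8 such fits.

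The genes of meiosis itself differed by list. Of 10 tested genes for meiotic breaks and recombination, the process that Spo11 starts, none was called higher in any comparison by edgeR. DESeq2 called none higher either where it gave an adjusted p. Of all genes, edgeR called 4.59% to 13.1% higher in the comparisons between subsets and 2.36% in the interaction. In each comparison between subsets 2 to 3 of the 10 had an unadjusted edgeR p under 0.05. Psmc3ip was called lower in Tspan8pos cells at the MHCIIlo level, beside 9.34% of all genes, a call lost without 7 of the 8 libraries. Meiosin, the partner of Stra8 in meiotic entry, was named after its values were seen. Its counts were 13 and 32 in Tspan8negMHCIIhi, 1 and 8 in Tspan8posMHCIIhi, 1 and 3 in Tspan8negMHCIIlo and 0 and 1 in Tspan8posMHCIIlo, and no comparison passed (edgeR adjusted p = 0.036 between MHCII levels in Tspan8neg cells). Of 4 tested genes of the meiotic cohesin and chromosome axis, 1 was called higher and 1 lower in Tspan8pos cells at each MHCII level. Of all genes, 12.1% and 9.34% were so called at the MHCIIlo level and 11% and 7.45% at the MHCIIhi level. Between MHCII levels in Tspan8neg cells 1 was called lower, beside 9.67% of all genes. Rec8, a cohesin subunit like Smc1b, was higher in Tspan8pos cells: it was at 18.6 and 21.1 CPM in Tspan8posMHCIIhi against 7.47 and 6.43 CPM in Tspan8negMHCIIhi (log2 fold change 1.70, SE 0.24, edgeR adjusted p = 0.00025). It was also called higher in Tspan8pos cells at the MHCIIlo level (1.73, SE 0.25, edgeR adjusted p = 0.00026), and both calls held without each library in turn. Stag3, another cohesin subunit of meiosis, was highest in Tspan8negMHCIIlo, at 13.9 and 15.8 CPM, against 5.05 and 4.11 CPM in Tspan8negMHCIIhi and 1.10 to 3.10 CPM in the Tspan8pos libraries. It was called lower in Tspan8pos cells at the MHCIIlo level (-2.25, SE 0.47, edgeR adjusted p = 0.0028), a call lost without either Tspan8posMHCIIlo library (adjusted p up to 0.0256). It was also lower in MHCIIhi than in MHCIIlo cells of the Tspan8neg class (-1.71, SE 0.42, edgeR adjusted p = 0.0074), a call lost in 6 of the 8 fits without 1 library and under DESeq2 (adjusted p = 0.044). Trip13, which remodels the chromosome axis, was at 5.05 and 6.57 CPM in Tspan8negMHCIIhi and 0.368 and 1.16 CPM in Tspan8posMHCIIhi (-2.74, SE 0.64, edgeR adjusted p = 0.0062), a call lost without any of these 4 libraries and under DESeq2 (adjusted p = 0.014). The only tested gene of the synaptonemal complex central element and the 2 of meiotic entry were called in no comparison by edgeR, with at most 1 gene of each list at an unadjusted p under 0.05.

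**Figure D5:**
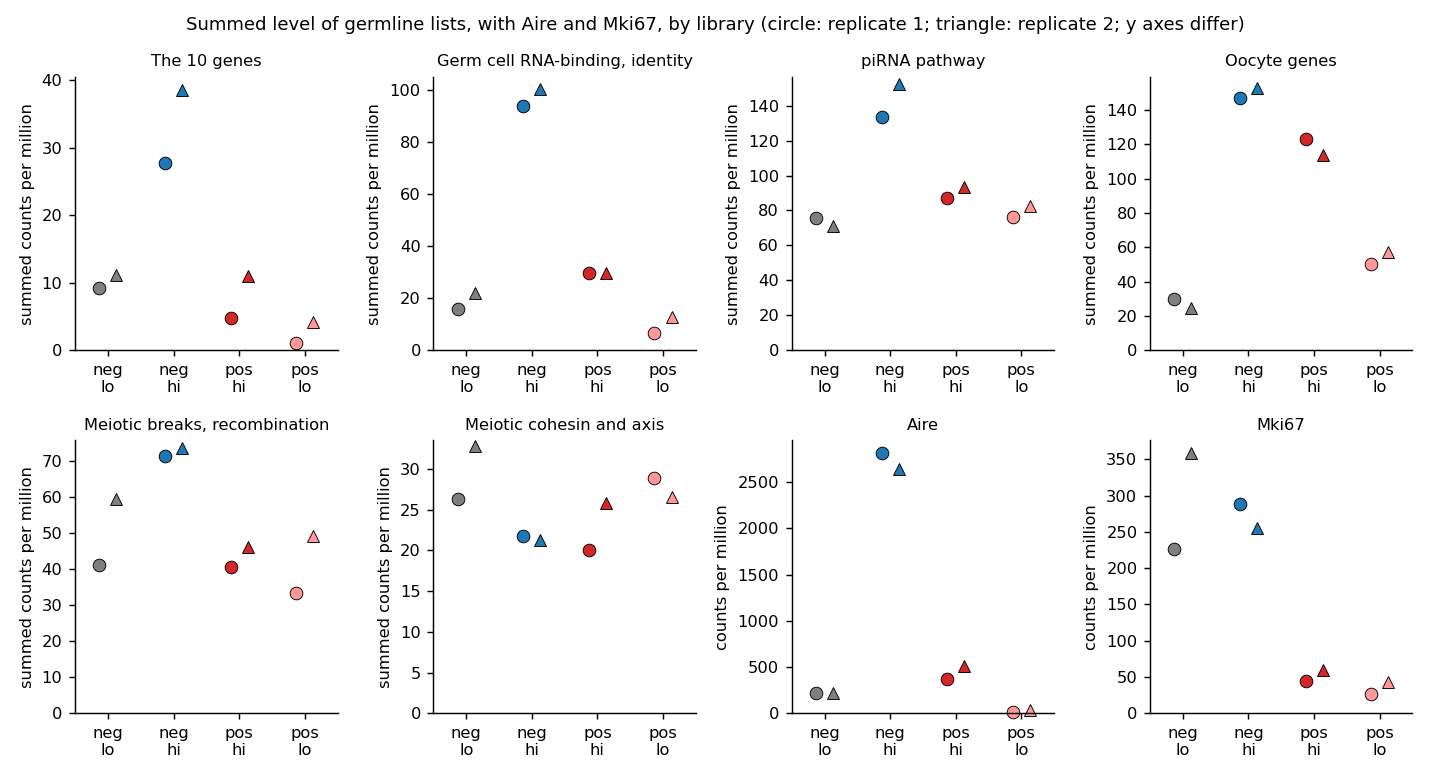
Summed level in CPM (y axis, scale set for each panel) of the 10 germline and meiosis genes, of which 7 have a row, and of 5 germline lists, with Aire and the proliferation gene Mki67, in each library of the 4 subsets (x axis). The sum over those 7 genes, mostly Stra8 and Spo11, was 27.7 and 38.6 in Tspan8negMHCIIhi and at most 11.2 elsewhere, while the meiotic cohesin and axis list was not highest there.

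Genes known to repress the germline programme were tested as a list of 13, which holds the Mga/Max and E2f6 complex and the DNA methylation enzymes. At the MHCIIlo level 4 of the 13 were called lower in Tspan8pos cells and none higher, beside 9.34% and 12.1% of all genes, among them Uhrf1 (log2 fold change -3.11, SE 0.23, edgeR adjusted p = 2e-06) and Dnmt1 (-1.29, SE 0.17, edgeR adjusted p = 0.00014), which copy DNA methylation after replication. At the MHCIIhi level Max was higher in Tspan8pos cells, at 81.0 and 74.4 against 40.0 and 33.5 CPM (log2 fold change 1.26, SE 0.15, edgeR adjusted p = 6.6e-05), and Uhrf1 was lower (-2.02, SE 0.21, edgeR adjusted p = 2.7e-05). Between MHCII levels in Tspan8neg cells E2f6 fell by 1.72 on the log2 scale (SE 0.36, edgeR adjusted p = 0.0026), from 16.8 and 16.0 CPM to 4.61 and 5.34 CPM, a call lost without either Tspan8negMHCIIhi library. Dnmt1 fell there by 1.07 (SE 0.17, edgeR adjusted p = 0.00044), a call lost without replicate 2 of either Tspan8neg subset.

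Other genes moved with the same subsets. Aire was at 2808 and 2644 CPM in Tspan8negMHCIIhi, 372 and 516 CPM in Tspan8posMHCIIhi, 219 and 221 CPM in Tspan8negMHCIIlo and 13.9 and 33.3 CPM in Tspan8posMHCIIlo. The means of Stra8 fell in the same order, its last step not being resolved. Summed proliferation genes were at 514 to 867 CPM in the Tspan8neg libraries and 57.2 to 128 CPM in the Tspan8pos libraries. All 10 were called lower in Tspan8pos cells at both MHCII levels, beside 9.34% of all genes at MHCIIlo and 7.45% at MHCIIhi. This was the direction of the Spo11 values and of the Trip13 and Uhrf1 calls at the MHCIIhi level, while Rec8 and Max were called the other way there. Myeloid and dendritic cell markers summed to 380 to 459 CPM in the MHCIIhi libraries and 57.9 to 203 CPM in the MHCIIlo libraries. Of these 5 genes, 2 were called higher in MHCIIhi cells of the Tspan8neg class, beside 13.1% of all genes. In the Tspan8pos class 1 of 5 was, beside 4.59% of all genes. Lyz2 and Itgam were the 2 called in the Tspan8neg class, while Itgax, a dendritic cell marker, was at 4.39 and 6.57 CPM in Tspan8negMHCIIhi against 9.55 and 27.7 CPM in Tspan8negMHCIIlo, and at 0 in Tspan8posMHCIIlo replicate 1. Of 4 fibroblast markers, Col1a1 (93.6 and 97.5 CPM) and Pdgfrb (62.6 and 51.1 CPM) were highest in Tspan8negMHCIIhi, at no more than 47.3 and 29.5 CPM elsewhere. The 2 others were called lower there than in Tspan8negMHCIIlo, beside 9.67% of all genes. The part of Aire, of proliferating cells and of the other cell types named here in the values of the germline, meiosis and repressor genes was not tested.

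The 5 tested genes whose level over the 8 libraries was most like that of Spo11 were Ccne2 (Pearson r = 0.99), Nup37 (0.97), Parpbp (0.97), Cox15 (0.97) and 5830408C22Rik (0.97), on edgeR log2 CPM. Ccne2 encodes a cyclin of the entry into DNA replication. These values describe 8 points that share libraries and depth, and they are the top of 17006 genes.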

How the data were processed

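RNA was measured in 8 libraries, 2 for each of 4 mTEC subsets. The deposited values are estimated counts per gene, stored as whole numbers: the authors quantified 54-base single-end reads with Salmon 1.8.0 on Gencode vM10 (mm10). How transcripts were summed and rounded is not given in the sources used here, and the labels and the methods name different library kits, so use of strand is not settled. Estimated counts can split reads among near-identical copies. Symbols and coordinates came from GENCODE vM21 (GRCm38), a later release than the authors used.

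Genes were filtered with filterByExpr, scaled by TMM and tested with edgeR 4.0.16 quasi-likelihood (R 4.3.3), with 1 mean per subset and Benjamini-Hochberg adjustment over 17006 genes. DESeq2 1.42.0 was an alternative, as were other filters, scalings, thinning, a replicate block and leaving out each library. The test was checked on simulated counts. The 10 genes and all lists were chosen with earlier results of these data known. By rule all 10 genes could be named, and of each list up to 3 called genes per comparison, by adjusted p. Sohlh1, Spocd1 and Nlrp5, beyond those 3, and the marker genes were named after their values were seen. Aire, Tspan8 and H2-Ab1 were checks of the sort. CPM is counts over the library total. SE is the log2 fold change over the root of F.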

Additional observations from a re-analysis of the deposited data

Results flagged for a closer look

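The difference between the Tspan8 effects at the MHCIIlo and the MHCIIhi level passed the test for Zp2, an oocyte gene outside the 10 germline and meiosis genes. Its interaction was 1.498 on the log2 scale (SE 0.24, edgeR adjusted p = 0.0029). Of the 42 tested genes of the 8 other germline lists, only Zp2 was called for the interaction. Of all genes tested, 2.36% were called above 0 and 2.24% below, so this count is near the share of all genes. Zp2 was higher in Tspan8pos than in Tspan8neg cells at the MHCIIlo level (log2 fold change 1.68, edgeR adjusted p = 3.5e-05), while in MHCIIhi cells the libraries of the 2 Tspan8 classes overlapped. DESeq2 called it too (adjusted p = 0.00022). The call was lost without Tspan8negMHCIIhi replicate 1 and without either library of Tspan8posMHCIIhi or Tspan8posMHCIIlo, with adjusted p up to 0.031.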

How the results depend on the processing

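The 4 comparisons and the interaction were recomputed under each alternative that could be fitted. The interaction needs all 4 subsets and has no fit on 4 libraries, Stra8 has no value at the MHCIIlo level on 4 libraries, Tdrd1 has none on 4 libraries at that level or in Tspan8pos cells and none with thinning or the filter of 10 counts, and Ddx4 and Smc1b were refitted in 2 comparisons. Over the counts of called germline and meiosis genes, 67 values stayed within 1.5 times of the reported one and 17 moved. Between Tspan8 classes at the MHCIIhi level 1 gene was called, 0 with DESeq2 or with all libraries thinned to the smallest total, 2 with a replicate block, with only the 4 libraries compared or at an adjusted p under 0.05, and 0 to 1 without each library in turn. The second gene was Spo11 in each case. Between MHCII levels in Tspan8pos cells 1 was called, 0 with DESeq2 or with thinning, and 0 to 1 without each library in turn. In Tspan8neg cells the count stayed at 1 throughout the fits without 1 library. Same-numbered libraries correlated at 0.0136 to 0.152 in their deviations from the subset means, over 0.1 in 4 of 6 pairs of subsets but not in all. The labels name no shared animal or day. The numbers were therefore not taken as pairs, though whether they are is not settled. The block changed no other count of these genes. Of 299 recomputed fold changes of these genes, 11 changed sign, none of them a call. All came from fits without 1 library, over which the interaction ranged from -3.31 to 0.35 for Stra8, -1.30 to 1.82 for Tdrd1 and -1.85 to 1.22 for Spo11. The MHCII difference in Tspan8pos cells ranged from -0.20 to 2.29 for Tdrd1 and from -0.45 to 2.63 for Spo11, negative without Tspan8posMHCIIhi replicate 2. Of 30 calls among the other germline genes, 9 held without each library in turn and 16 were calls under DESeq2, which gave no adjusted p for 2. Depth limits what can be said of Ddx4, Smc1b, Dazl and Hormad1, which stayed at 24 counts or fewer in every library.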
